A study of Arabidopsis thaliana with 12 samples.

Results

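The Aux/IAA genes measured here are IAA15 (AT1G80390), IAA18 (AT1G51950), IAA20 (AT2G46990), IAA29 (AT4G32280), IAA30 (AT3G62100), IAA31 (AT3G17600), IAA33 (AT5G57420) and IAA34 (AT1G15050). They are the 8 probe sets, of 16722 linked to exactly 1 gene, whose symbol in the array annotation is IAA followed by a number only. The RefSeq annotation of Arabidopsis thaliana holds 29 Aux/IAA genes. The other 21 had no linked probe set and were not analysed here. Each of 12 RNA samples was hybridised to an Affymetrix Arabidopsis Gene 1.0 ST array, called a library here, in 4 groups of 3 biological replicates. The groups were roots of the wild type, the accession Wassilewskija-4, roots of a line labelled aladin, and the shoots of each. All seedlings were 10 days old, and roots and shoots were frozen right after they were parted. Seeds were stratified for 3 days, and seedlings grew on 1% sucrose and 1% agar with 16 h of light at 20 °C. The sources used here do not give the allele of the aladin line, the number of plants behind a library or any pooling, so p values measure the spread between these libraries.

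Aux/IAA proteins are short-lived repressors of the auxin response. They bind auxin response factors on the promoters of auxin-regulated genes and recruit TOPLESS co-repressors. Auxin joins an Aux/IAA protein to a receptor of the TIR1/AFB family through a short degron in its domain II, after which the repressor is degraded and transcription starts. Many Aux/IAA genes are themselves induced by auxin, so the family also forms a feedback loop. The measured members fall into 2 kinds. IAA15, IAA18 and IAA29 carry the degron. IAA20, IAA30, IAA31, IAA33 and IAA34 lack it or hold a degenerate form of it, and such members are known to be more stable towards auxin.

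RMA signals on a log2 scale were available without detection calls, and levels of different probe sets were not set against each other. Library medians ran from 5.86 to 6.0. Within groups, libraries correlated across probe sets with Pearson's r of 0.983 to 0.987 in shoot and 0.990 to 0.993 in root, and 3 arrays per group limit how precise a mean can be. ALADIN (AT3G56900), the nuclear pore gene after which the line is labelled, was higher and not lower in the libraries labelled aladin, by 4.29 log2 units in root and 4.65 in shoot. Every direction below is therefore that of libraries labelled aladin against libraries labelled wild type. All 6 measured markers of green tissue were higher in wild-type shoot than in wild-type root, and both measured root hair markers, EXPA7 and EXPA18, were higher in root.

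**Figure D1:**
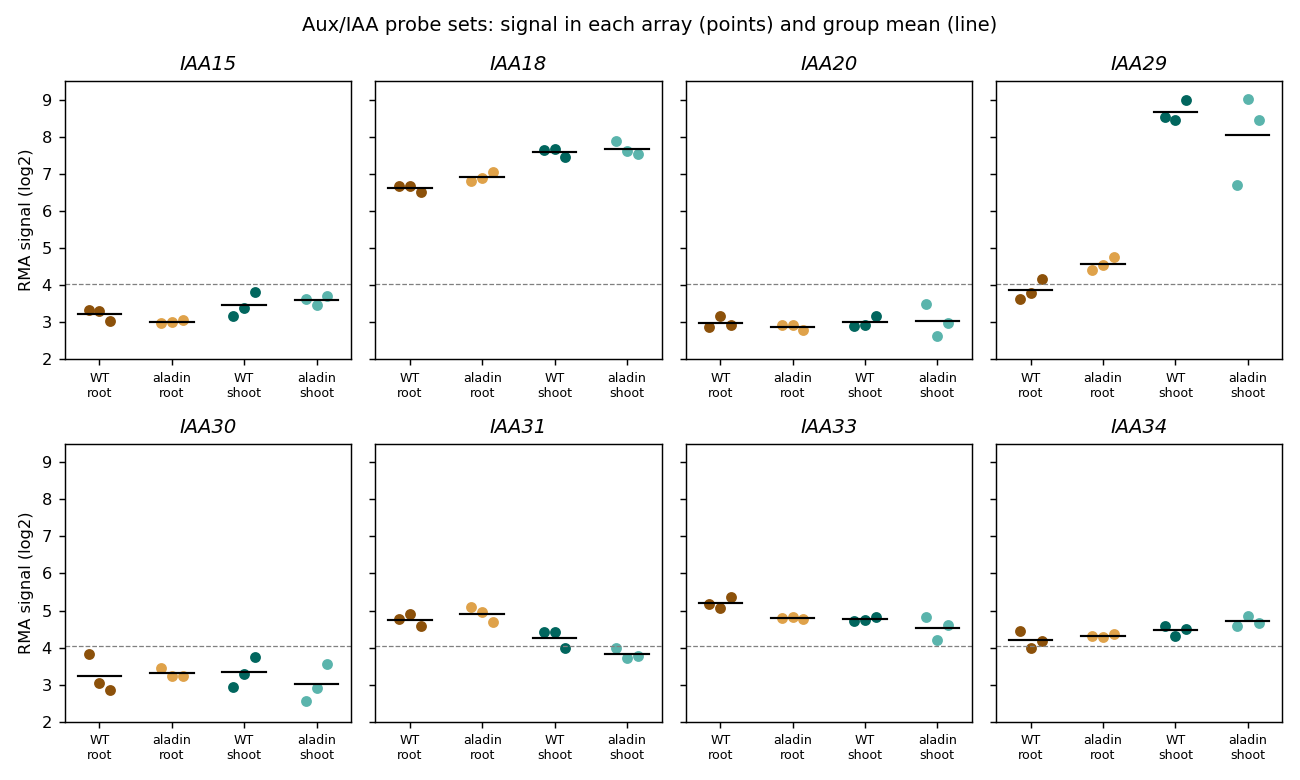
RMA signal (log2, vertical axis) of the 8 Aux/IAA probe sets in each of the 12 libraries (points, replicates 1 to 3 from left to right) with the group mean (line). The dashed line is the 25th percentile of all values in the table, 4.03. IAA29 separates the organs most, and 1 library labelled aladin shoot lies at 6.70 while the others of its group lie at 9.02 and 8.46.

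The strongest pattern in the family was the organ difference of IAA29, a gene induced by PIF transcription factors in shade and warmth. Its signal was 8.54, 8.45 and 8.99 in wild-type shoot and 3.63, 3.77 and 4.15 in wild-type root. In the libraries labelled aladin it was 6.70, 9.02 and 8.46 in shoot and 4.39, 4.53 and 4.75 in root. Every shoot library thus lay above every root library. Root was lower than shoot by 4.81 log2 units in wild type, which is 28.0-fold (SE 0.44, limma adjusted p = 1.3e-06), and by 3.5, or 11.3-fold, in the libraries labelled aladin (SE 0.44, adjusted p = 2.2e-05). The latter difference was -4.18 on leaving out aladin shoot replicate 1 and -3.02 on leaving out replicate 2 of that group, and it passed both times. Of all 17481 tested probe sets, 0.761% had a larger organ difference in wild type. The wild-type root mean of IAA29, 3.85, lay under the 25th percentile of all values in the table, 4.03. Whether that signal is above background is not known, so 28.0-fold is a ratio of signals and not a measured ratio of the transcript. The 95% interval of the wild-type difference ran from -5.77 to -3.85 log2 units, so the ratio of signals may also be smaller or larger.

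IAA18, a repressor whose stabilised form reduces lateral root formation, was also higher in shoot. Its wild-type values were 7.65, 7.66 and 7.44 in shoot and 6.68, 6.68 and 6.51 in root, a root minus shoot difference of -0.96 (SE 0.11, adjusted p = 1.1e-05). The libraries labelled aladin gave 7.87, 7.62 and 7.52 in shoot and 6.80, 6.88 and 7.05 in root, a difference of -0.76 (SE 0.11, adjusted p = 8.6e-05). In neither genotype did the organs overlap.

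IAA31, a member with a degenerate degron, went the other way and was higher in root. Wild-type root had 4.78, 4.90 and 4.58 and wild-type shoot 4.41, 4.41 and 3.98, a root minus shoot difference of 0.49 (SE 0.14, adjusted p = 0.0122). Root libraries labelled aladin had 5.10, 4.97 and 4.69 and shoot libraries 3.98, 3.73 and 3.78, a difference of 1.09 (SE 0.14, adjusted p = 3.5e-05). The organs did not overlap in either genotype, and the gap was larger on average in the libraries labelled aladin. The wild-type call was lost on leaving out wild-type shoot replicate 3 (adjusted p = 0.0523) or wild-type root replicate 2 (adjusted p = 0.0519).

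IAA33, which lacks both the degron and the repression motif of domain I and is known for a role in the root tip, was higher in root in wild type. Its values were 5.18, 5.07 and 5.37 in wild-type root and 4.71, 4.75 and 4.82 in wild-type shoot, a difference of 0.45 (SE 0.14, adjusted p = 0.0140). This call ended without wild-type root replicate 3 (adjusted p = 0.0609). In the libraries labelled aladin the organs overlapped, with 4.81, 4.82 and 4.77 in root and 4.82, 4.2 and 4.6 in shoot, and the difference of 0.26 did not pass (95% interval -0.04 to 0.56, adjusted p = 0.114). Of 21 alternatives it passed under 1, without aladin shoot replicate 1 (adjusted p = 0.0176). With each library left out in turn it ran from 0.09 to 0.40 (adjusted p up to 0.486).

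IAA34, a degron-free member known from the apical hook, and IAA15, a repressor of lateral root formation in its stabilised form, were lower in root than in shoot in the libraries labelled aladin. IAA34 had 4.32, 4.29 and 4.36 in root and 4.59, 4.86 and 4.66 in shoot there, a difference of -0.38 (SE 0.12, adjusted p = 0.0154). This call was lost without aladin shoot replicate 2 (adjusted p = 0.0639) and after a renewed quantile normalization (adjusted p = 0.0842). IAA15 had 2.96, 2.99 and 3.04 in root and 3.62, 3.45 and 3.69 in shoot, a difference of -0.59 (SE 0.15, adjusted p = 0.0039). The IAA15 difference ran from -0.68 to -0.40 under the alternatives other than leaving out a library. Its means lay under 4.03 in every group, and whether that signal is above background is not known. Neither gene passed in wild type, where IAA34 differed by -0.27 (adjusted p = 0.0679) and IAA15 by -0.23 (adjusted p = 0.199). There IAA34 passed under 3 of 21 alternatives and IAA15 under 1 of 20. IAA34 passed without wild-type shoot replicate 2 (adjusted p = 0.0395) or wild-type root replicate 1 (adjusted p = 0.0142), and with each library centred on its median (adjusted p = 0.0278). IAA15 passed without wild-type shoot replicate 1 (adjusted p = 0.0403). Leaving out other libraries brought the wild-type difference to as little as -0.17 for IAA34 (adjusted p up to 0.268). For IAA15 it came to as little as -0.05 (adjusted p up to 0.744).

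IAA20 and IAA30, closely related members expressed in vascular tissue and known as targets of the auxin response factor MONOPTEROS, passed in neither genotype. IAA20 differed between root and shoot by -0.02 in wild type (95% interval -0.40 to 0.37) and IAA30 by -0.09 (95% interval -0.72 to 0.54). The means of both lay under 4.03 in all 4 groups, as did those of IAA15. As folds of wild-type root over shoot, the intervals ran from 0.61 to 1.46 for IAA30 and from 0.76 to 1.29 for IAA20.

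In all, 4 of the 8 members passed an adjusted p of 0.05 between wild-type root and shoot, with 2 higher in root and 2 lower. Of all 17481 tested probe sets 58.8% passed (31.9% higher and 26.9% lower in root). A count among 8 members is too small to be told from that share. The wild-type calls included none of IAA15, IAA20 and IAA30, the 3 members with means under 4.03 in every group. In the libraries labelled aladin 5 of the 8 passed, 1 higher in root and 4 lower, beside 62.1% of all probe sets (33.2% higher and 28.8% lower). The organs did not overlap for 4 of 8 members in wild type and 5 of 8 in the libraries labelled aladin, beside 64.3% and 67.5% of all. The median absolute organ difference of the members was 0.36 in wild type and that of all probe sets 0.41. In whole organs, fewer cells of a type and less RNA per cell cannot be told apart.

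**Figure D2:**
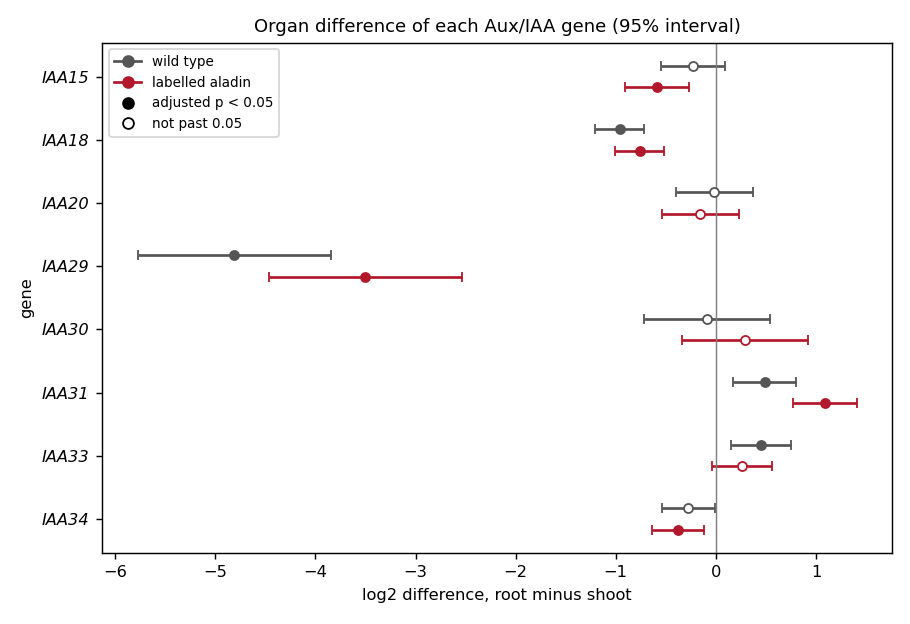
Root minus shoot difference (log2, horizontal axis) of each Aux/IAA gene in wild type (grey) and in the libraries labelled aladin (red), with 95% intervals from limma. Filled points passed an adjusted p of 0.05. IAA29 stands furthest from 0, at -4.81 and -3.5, and IAA31 lies on the root side in both genotypes.

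The root comparison asked which of these genes differ between the genotypes in root. None of the 8 Aux/IAA genes passed an adjusted p of 0.05 there by limma, a count of 0 beside 7.64% of all probe sets. At an unadjusted p under 0.05 there were 2 of the 8, IAA18 and IAA33, beside 3520 of all 17481 probe sets. Of the members 5 had a higher mean in the libraries labelled aladin and 3 a lower one, with a median difference of 0.09 against -0.04 over all probe sets.

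IAA33 had root values of 5.18, 5.07 and 5.37 in wild type and 4.81, 4.82 and 4.77 in the libraries labelled aladin. The groups did not overlap, and the difference was -0.41 (SE 0.14, 95% interval -0.71 to -0.11, adjusted p = 0.105). It passed when only the root libraries were fitted (adjusted p = 0.0316), with array weights (adjusted p = 0.0237) and on leaving out aladin shoot replicate 2 (adjusted p = 0.0254), and did not pass under the other alternatives. IAA18 had 6.68, 6.68 and 6.51 in wild-type root and 6.80, 6.88 and 7.05 in root labelled aladin, again without overlap. Its difference was 0.29 (SE 0.11, 95% interval 0.04 to 0.53, adjusted p = 0.164), and it passed with array weights (adjusted p = 0.0461).

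IAA29 also did not overlap between the root groups, with at most 4.15 in wild type and at least 4.39 in the libraries labelled aladin. The difference of 0.71, or 1.63-fold, carried an SE of 0.44 and did not pass (adjusted p = 0.430). That SE comes from a spread shared by all 4 groups. The SDs of IAA29 were 0.27 and 0.18 in wild-type root and root labelled aladin, 0.29 in wild-type shoot and 1.21 in shoot labelled aladin (n = 3 each). With only the root libraries fitted the same difference had an SE of 0.15 and passed (adjusted p = 0.0284), and on leaving out aladin shoot replicate 1 it had an SE of 0.20 (adjusted p = 0.0540). Of all probe sets 3.73% had a larger root difference.

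The other 5 members overlapped between the root groups. Their differences ran from -0.22 for IAA15 (95% interval -0.54 to 0.10) to 0.16 for IAA31 (95% interval -0.15 to 0.48). IAA20 had -0.10, IAA30 0.06 and IAA34 0.12. In all, 3 of the 8 members had root groups that did not overlap, a share near the 31.7% of all probe sets.

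In shoot, too, none of the 8 passed by limma, a count of 0 beside 2.96% of all probe sets. At an unadjusted p under 0.05 there were 3058 of all 17481 probe sets and 1 of the 8 members. That gene was IAA31, with 4.41, 4.41 and 3.98 in wild type and 3.98, 3.73 and 3.78 in the libraries labelled aladin. Its groups nearly touched, at 3.98, without overlapping, and the difference was -0.44, or 1.35-fold (SE 0.14, 95% interval -0.75 to -0.12, adjusted p = 0.141). No alternative brought it past the threshold, with adjusted p from 0.0601 to 0.308. IAA34 was the other member whose shoot groups did not overlap, with 4.58, 4.32 and 4.51 in wild type and 4.59, 4.86 and 4.66 in the libraries labelled aladin (difference 0.23, adjusted p = 0.346). Those 2 of 8 compare with 19.0% of all probe sets.

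IAA29 had the largest mean difference of the members in shoot, -0.60 (SE 0.44, 95% interval -1.56 to 0.36, adjusted p = 0.529), and 1 library set its direction. Aladin shoot replicate 1 lay at 6.70, below all wild-type shoot values, whereas replicates 2 and 3, at 9.02 and 8.46, lay among or above them. Without aladin shoot replicate 1 the difference was 0.08 (adjusted p = 0.904). Without replicate 2 of the same group it was -1.08 and without replicate 3 it was -0.80, and neither passed.

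Among the remaining members the shoot values of IAA15, IAA18, IAA20, IAA30 and IAA33 overlapped between the genotypes. IAA33 had a difference of -0.22 (95% interval -0.52 to 0.08), on the same side of 0 as in root. IAA30 had -0.32, IAA15 0.14, IAA18 0.08 and IAA20 0.03. The shoot values of IAA20 labelled aladin were 3.49, 2.63 and 2.97 and those of IAA30 2.57, 2.92 and 3.55, spreads wider than either difference.

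**Figure D3:**
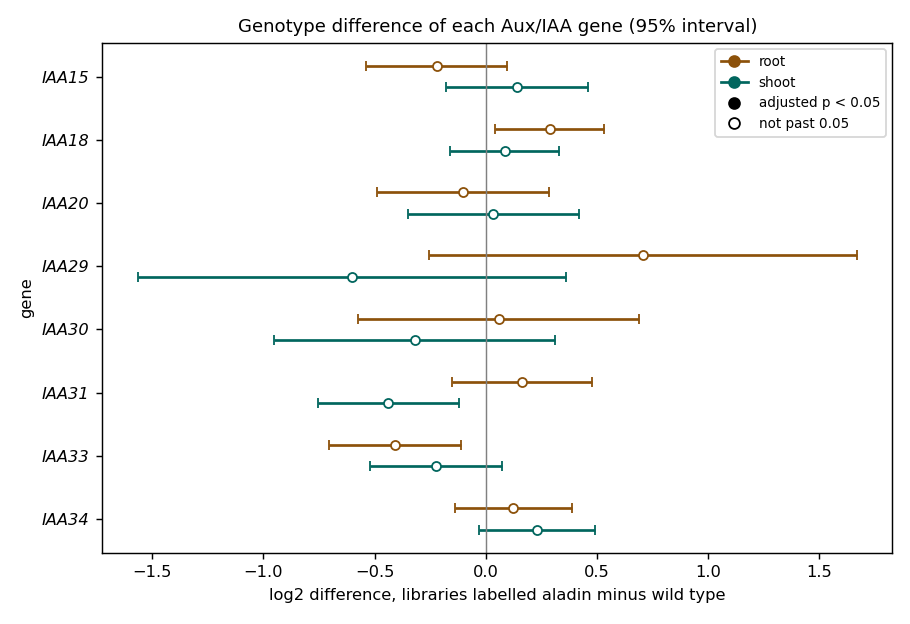
Difference between libraries labelled aladin and wild type (log2, horizontal axis) of each Aux/IAA gene in root (brown) and shoot (green), with 95% intervals from limma. All points are open since none passed an adjusted p of 0.05, and the intervals of IAA18 and IAA33 in root and IAA31 in shoot leave out 0 before adjustment.

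Whether the genotype difference itself differed between root and shoot was tested as an interaction. None of the 8 members passed by limma, a count of 0 beside 2.15% of all probe sets. At an unadjusted p under 0.05 there were 2453 of all 17481 probe sets and 1 of the 8 members, IAA31. Its genotype difference was 0.16 in root and -0.44 in shoot, and these differed by 0.60 (SE 0.20, 95% interval 0.15 to 1.05, adjusted p = 0.186). IAA29 had the larger gap, 1.31 (SE 0.62, adjusted p = 0.383), which was 0.63 without aladin shoot replicate 1. The gaps of IAA15 (-0.36, adjusted p = 0.487), IAA33 (-0.18, adjusted p = 0.769) and IAA34 (-0.11, adjusted p = 0.864) bear on the organ calls that were made in 1 genotype and not in the other. A difference between the genotypes in those organ effects was thus not shown.

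The order of the 4 groups differed between members. IAA18 and IAA29 had both shoot groups above both root groups, with root labelled aladin next and wild-type root lowest. In both genes the 2 shoot groups overlapped and the other neighbours in the order did not. IAA31 ran from root labelled aladin through wild-type root and wild-type shoot to shoot labelled aladin, and only its 2 root groups overlapped. In IAA33 wild-type root stood above the rest, and root labelled aladin, wild-type shoot and shoot labelled aladin each overlapped with the next. In IAA34 shoot labelled aladin stood only just above the rest, with at least 4.59 against at most 4.58 in wild-type shoot. The other neighbours in its order overlapped. All neighbouring groups overlapped in IAA15, IAA20 and IAA30. The group means of IAA20 spanned 0.15 log2 units, the smallest range of the members, and those of IAA29 spanned 4.81.

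For the 3 members whose group means spanned at least 1 log2 unit, the probe set with the most similar pattern was sought among 16714 single-gene probe sets, as the smallest root-mean-square difference of the 12 mean-centred values. For IAA29 it was AT1G78995, at 0.45 log2 units. AT1G78995 was also lowest in shoot labelled aladin in replicate 1, with 7.11 against 8.17 and 7.97, and its root minus shoot difference in wild type was -3.92. For IAA18 the nearest was AT1G49180, at 0.10 log2 units, with an organ difference in wild type of -0.94. For IAA31 it was TBL28, of the TRICHOME BIREFRINGENCE-LIKE family, at 0.12 log2 units. Its group means were 6.54 in shoot labelled aladin and 6.93 in wild-type shoot. These probe sets were chosen on the same 12 values, so the likeness of their patterns is a description and was not tested.

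**Figure D4:**
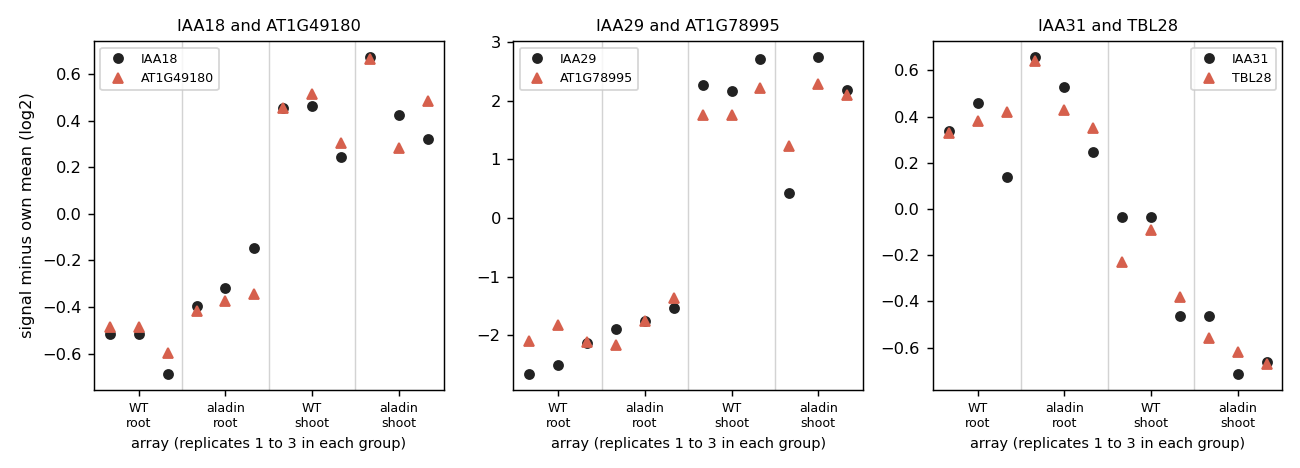
Signal minus the gene's own mean over 12 libraries (log2, vertical axis) for IAA18, IAA29 and IAA31 (circles) and the probe set nearest to each (triangles), with libraries in the order of groups and replicates 1 to 3. In the middle panel both genes are lowest among shoot libraries in aladin shoot replicate 1.

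Other steps of the auxin pathway were covered thinly. The lists of TIR1/AFB receptors, auxin response factors, TOPLESS co-repressors, SAUR genes and Aux/IAA degradation genes had 0 linked probe sets and were not analysed here. Of the GH3 enzymes, which conjugate auxin to amino acids and are early auxin-induced genes in part, 6 of 18 listed entries were measured. By limma 1 of the 6 passed in root, beside 7.64% of all probe sets, and 1 in shoot, beside 2.96%. An unadjusted p under 0.05 was found for 4 in root and 3 in shoot, beside 3520 and 3058 of all 17481 probe sets. In root 5 of the 6 had a higher mean in the libraries labelled aladin, though none of these passed: GH3.3 by 1.27 (adjusted p = 0.0555), GH3.1 by 0.52 (adjusted p = 0.141), WES1, the reference name of GH3.5, by 0.49 (adjusted p = 0.253), GH3.9 by 0.32 and GH3.4 by 0.04. The 1 gene past the threshold in root was the lower one, GH3.17, which makes the glutamate conjugate, with 9.84, 9.89 and 9.96 in wild type and 9.64, 9.49 and 9.55 in the libraries labelled aladin (difference -0.34, SE 0.09, adjusted p = 0.0421). It passed under 10 of 21 alternatives, and the call ended without any 1 of the 6 root libraries (adjusted p up to 0.157) or with the replicate number as a block (adjusted p = 0.0613).

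In shoot the gene was GH3.9, known for a role in primary root growth. It fell from 7.83, 7.97 and 7.69 in wild type to 6.93, 7.01 and 6.90 (difference -0.88, or 1.84-fold, SE 0.11, adjusted p = 0.0016), and the groups lay well apart. It passed under all 21 alternatives. In root the means of GH3.9 were 4.3 ± 0.19 in wild type and 4.62 ± 0.08 in the libraries labelled aladin (SD, n = 3 each), a difference of 0.32 that did not pass (adjusted p = 0.104). It passed with array weights (adjusted p = 0.0269). In shoot WES1 and GH3.17 had a higher mean in the libraries labelled aladin, by 0.57 (limma adjusted p = 0.212) and 0.26 (adjusted p = 0.165). GH3.1 had -0.26, GH3.3 -0.21 and GH3.4 -0.08 there, and none of these genes passed in shoot. The median difference of the 6 GH3 genes was 0.40 in root and -0.14 in shoot, against -0.04 and -0.02 over all probe sets.

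Of 5 LBD transcription factors of lateral root initiation 2 were measured. Of these 0 passed by limma between genotypes, beside 7.64% of all probe sets in root and 2.96% in shoot. In root 1 of the 2 had an unadjusted p under 0.05, beside 3520 of all 17481 probe sets. LBD16 differed by 0.38 in root (adjusted p = 0.0687) and LBD29 by 0.23 (adjusted p = 0.611). Both are root genes in these data, higher in wild-type root than in shoot by 2.11 and 2.85. Of 25 auxin transport genes WAG2, a kinase acting on PIN carriers, was the 1 measured, with -0.10 in root and 0.04 in shoot. Of 23 genes of auxin synthesis and breakdown 4 were measured, all YUC flavin monooxygenases. None passed between genotypes by limma, beside the same 7.64% in root and 2.96% in shoot. At an unadjusted p under 0.05 there were 0 in root and 2 in shoot, beside 3520 and 3058 of all 17481 probe sets. Lists of 2 and 4 measured genes are too small to be set against these shares. YUC11 had -0.24 and YUC4 0.14 in root. The 2 in shoot were YUC2, with -0.61 (adjusted p = 0.175), and YUC4, with -0.39 (adjusted p = 0.246). The shoot groups of both genes overlapped. YUC2 had 6.23, 6.26 and 6.59 in wild type and 5.21, 6.25 and 5.79 in the libraries labelled aladin, lowest in replicate 1.

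**Figure D5:**
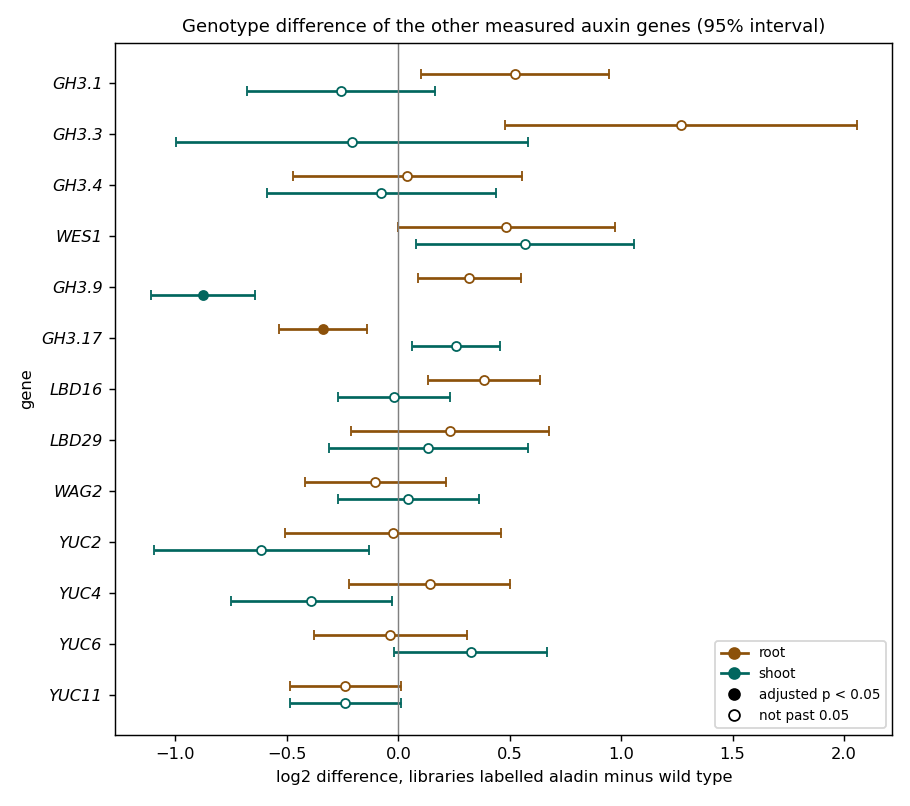
Difference between libraries labelled aladin and wild type (log2, horizontal axis) of the 13 other measured auxin genes in root (brown) and shoot (green), with 95% intervals from limma. Filled points passed an adjusted p of 0.05, which are GH3.9 in shoot at -0.88 and GH3.17 in root at -0.34. WES1 is the reference name of GH3.5.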

How the data were processed

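The authors deposited 1 log2 signal per probe set and library, normalized by RMA according to the submitters' processing notes. The sources used here do not give the software or the build, and the log2 scale was also inferred from the range of the values. Genes were assigned from the platform annotation, and symbols were updated from RefSeq (TAIR10.1) by gene number. Of 38408 probe sets, 17481 were linked to at least 1 gene and tested, 16722 of them to exactly 1. R 4.3.3 and limma 3.58.1 (lmFit, eBayes) fitted group means to all 12 libraries with 1 spread per gene, 8 residual and 3.67 prior degrees of freedom. P values were adjusted by Benjamini-Hochberg over the 17481, with a threshold of 0.05. Errors are limma SEs, and intervals are 95% before adjustment. No signal filter or replicate block was used. The members, the auxin lists and the tests were chosen with earlier results of these data known. Every member is named, with the nearest probe set of those spanning 1 log2 unit. Of each list the genes past the threshold are named, or otherwise the 2 with the smallest p in root. The other GH3 genes and YUC2 were named after their values were seen. Alternatives were another prior, a filter on dim probe sets, other probe sets tested, other scalings, array weights, a replicate block, only the compared groups, and leaving out each library. The fit was tested on simulated data. Python 3.11 and matplotlib 3.10.9 drew the figures.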

Additional observations from a re-analysis of the deposited data

Results flagged for a closer look

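By the interaction test in limma, the genotype difference differed between root and shoot for 2 of the 13 auxin-related genes outside the family. Of all probe sets 2.15% passed. The lists were chosen with earlier results of these data known, so no excess can be read from the 2 genes. For GH3.9 the root minus shoot gap was 1.2 (SE 0.15, adjusted p = 0.0017), with a difference of 0.32 in root and -0.88 in shoot, and no library in either organ crossed into the other genotype's range. For GH3.17 the gap was -0.59 (SE 0.13, adjusted p = 0.0375), with -0.34 in root and 0.26 in shoot, and it passed under 8 of 20 alternatives (adjusted p from 0.0040 to 0.102), not with the replicate number as a block (adjusted p = 0.0578). Groups of 3 libraries were too small for the test of single outlying libraries.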

How the results depend on the processing

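Over 21 alternatives, 101 of 104 recomputed counts of members past the threshold stayed within 1.5 times the count given above. In root the count went from 0 to 2 with array weights (IAA18 and IAA33), to 2 with only the groups compared fitted (IAA29 and IAA33), and ranged from 0 to 1 when each library was left out in turn. In shoot and for the interaction it was 0 under every alternative run. Between organs it ran from 3 to 5 in wild type and from 4 to 6 in the libraries labelled aladin when each library was left out. Of 817 recomputed differences of single members, 782 kept their direction and side of the threshold, 5 calls ended, 10 were gained and 20 changed sign, 0 of the latter with an adjusted p under 0.05. With quantile normalization the wild-type organ difference became 0.15 for IAA20 and 0.10 for IAA30, and that of IAA20 in the libraries labelled aladin 0.010. The other sign changes came from leaving out 1 library. In root IAA30 ran from -0.13 to 0.36. In shoot IAA15 ran from -0.0025 to 0.32, IAA18 from -0.014 to 0.16, IAA20 from -0.19 to 0.23 and IAA29 from -1.08 to 0.078. The interaction of IAA20 ran from -0.34 to 0.092 and that of IAA34 from -0.21 to 0.011. Between wild-type organs IAA20 ran from -0.11 to 0.061 and IAA30 from -0.39 to 0.12, and between organs labelled aladin IAA20 ran from -0.35 to 0.075. The cause was not tested. With dim probe sets left out, IAA15, IAA20 and IAA30 were not tested and 5 members remained.

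Same-numbered libraries deviated together from their group means weakly or not at all (r from -0.06 to 0.10 over 18 pairs). In root their r was 0.097, 0.016 and 0.058 for replicates 1, 2 and 3. Wild-type shoot 2 and wild-type root 1, of unlike number, had 0.085. Of 12 libraries 6 correlated best with their own number, and the numbers were not taken as pairs. With the replicate number as a block the counts of members past the threshold were 0 in root, 0 in shoot, 0 for the interaction, 4 between wild-type organs and 5 between organs labelled aladin. GH3.9 in root passed with this replicate block (adjusted p = 0.0459) and GH3.17 did not in root (adjusted p = 0.0613) or for the interaction (adjusted p = 0.0578).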
